A study of Drosophila melanogaster with 2 samples.

Results

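The Cpr genes are the Drosophila melanogaster genes for cuticle proteins that carry the Rebers and Riddiford consensus and are named by their cytological position. They were taken as all protein-coding genes whose symbol starts with Cpr followed by a digit, and 70 of 13968 protein-coding genes on the chromosome arms met that rule. Of these, 35 lay on 3L, 21 on 2R, 5 on 2L, 5 on 3R and 4 on X. Chromatin immunoprecipitation with sequencing was done on whole fly embryos aged 8 to 24 h from a strain with an insertion expressing CG16779 fused to eGFP, using an antibody to GFP. This was the only group, with 2 biological replicates per the labels, and a control library was not analysed here. The sources used here do not give the promoter driving the fusion, the number of embryos per replicate or the read depth. The signal came from whole embryos, so a site occupied in few cells and a weakly occupied site in many cells cannot be told apart.

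Insect cuticle is an extracellular layer of chitin fibres and protein that epidermal cells secrete and renew at each molt, and the embryo lays down its first larval cuticle late in embryogenesis. The Rebers and Riddiford domain binds chitin. In insects, the RR-1 form of the domain is known mostly from proteins of flexible cuticle and the RR-2 form from proteins of rigid cuticle. Many genes of the family sit in tandem arrays, and their expression follows pulses of the molting hormone ecdysone.

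A reproducible peak of CG16779-eGFP was rare at Cpr genes. A gene was counted as having a passing summit when the summit of a peak in the authors' conservative list lay within 500 bp of any of its transcription start sites (TSSs). Peaks of that list had an irreproducible discovery rate (IDR), a measure of how well the rank of a peak repeats between replicates, of at most 0.01. Of the 70 Cpr genes, 1 (1.43%, exact 95% interval 0.0362 to 7.70%, counting error only) had a passing summit, beside 11.3% of all protein-coding genes. No test was made on this list, since it was chosen with earlier results of these data known. The share among the other protein-coding genes of 3L, the arm with most members, was 12.6%. Cpr genes have few start sites, and 63 of the 70 had 1 TSS. Among all protein-coding genes with 1 TSS, 8.01% had a passing summit, beside 1 of 63 such Cpr genes (1.59%, exact 95% interval 0.0402 to 8.53%), an interval that includes the share of all such genes. In the thresholded list made from pooled reads, 2 of 70 Cpr genes had a summit within 500 bp, against 11.9% of all protein-coding genes. In the own thresholded lists of replicates 1 and 2, which hold fewer peaks, 0 of 70 Cpr genes had one in either, which allows shares of up to 5.13% (exact 95% bound). The shares of all protein-coding genes in those lists were 6.47% and 6.62%. Among genes with 1 TSS they were 4.39% and 4.65%, below the 5.69% that 0 of 63 Cpr genes allows. At 250 bp in place of 500 bp, and in the stronger 1258 peaks of the conservative list, the count of Cpr genes was also 0. Both settings are stricter, and the shares of all protein-coding genes under them are not given here, so these counts have no background beside them.

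The member with a passing summit was Cpr65Ec (FBgn0035737, 3L:7093204-7093841, plus strand, dm6). The peak spanned 3L:7093373-7093662, and its summit lay 314 bp downstream of the TSS, in a coding exon. The signal of the peak, in the units of the authors' peak caller, was 39.4 in replicate 1 and 28.2 in replicate 2, a mean of 33.8 ± 7.94 (SD, n = 2). The −log10 of its IDR was 2.08, just past the threshold of 2, and 86.2% of the genes with a ranked peak had a lower signal. The pooled-read list added Cpr76Bd (FBgn0036881, 3L:19532743-19538289, plus strand), which encodes the longest predicted protein of the family. Its peak, at 3L:19532630-19532919, had a summit 32 bp downstream of the TSS in an untranslated exon. The signal there was 21.1 in replicate 1 and 41.6 in replicate 2, a mean of 31.35 ± 14.5 (SD, n = 2), beside a lowest mean of 31.37 among peaks of the conservative list. In the ranking of replicate 1 against replicate 2, the −log10 IDR of this peak was 1.28. Replicate 1 was the higher one at Cpr65Ec and replicate 2 at Cpr76Bd, where replicate 2 alone exceeded any value of Cpr65Ec.

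The core promoters of 7 of the 8 members with the highest signal are printed below, all but that of Cpr60D, because they show the TATA box that most of the family carries and some of its strongest members lack. Each runs 5′ to 3′ on the strand of the gene, from 45 bp upstream to 15 bp downstream of the annotated 5′ end of the gene, read from release 6 of the reference genome (dm6). Capitals mark a TATA match (TATAA or TATAT starting 45 to 15 bp upstream) and an initiator match (TCAGT starting within 10 bp of the TSS). They lie at 3L:7093159-7093219 (plus), 3L:19532698-19532758 (plus), 3L:16957674-16957734 (minus), 3L:10894128-10894188 (plus), 3L:21292785-21292845 (minus), 3L:1842069-1842129 (minus) and 3L:9404752-9404812 (plus), in the order printed.
Cpr65Ec: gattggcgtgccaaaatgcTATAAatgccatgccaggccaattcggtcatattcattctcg
Cpr76Bd: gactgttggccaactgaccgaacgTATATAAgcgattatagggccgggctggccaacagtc
Cpr73D: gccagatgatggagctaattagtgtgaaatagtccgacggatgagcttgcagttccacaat
Cpr67Fb: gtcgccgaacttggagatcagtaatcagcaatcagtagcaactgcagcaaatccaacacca
Cpr78Ca: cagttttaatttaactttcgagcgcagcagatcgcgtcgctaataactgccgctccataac
Cpr62Bc: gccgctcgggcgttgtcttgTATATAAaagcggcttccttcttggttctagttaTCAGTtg
Cpr67B: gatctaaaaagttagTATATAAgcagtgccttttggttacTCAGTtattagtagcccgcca

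Matches to a TATA box were searched at every TSS of a gene on its own strand. The 5-letter forms were found at 54 of 70 Cpr genes (77.1%), beside 22.1% of all protein-coding genes. The 6-letter form TATAAA, which contains the first of those forms, was found at 43 Cpr genes (61.4%), beside 11.0% of all protein-coding genes. The initiator TCAGT was found at 12 Cpr genes (17.1%) and 17.7% of all genes, so its share was near the background. TATA box and initiator occurred together at 10 Cpr genes (14.3%), against 4.51% of all genes. Within 500 bp of a TSS and on both strands, ACCGGTT, the core of the site of the epidermal factor Grainy head, was found at 9 Cpr genes (12.9%) and 6.53% of all genes. The DNA replication-related element TATCGATA, common at promoters of broadly expressed genes, was found at 2 Cpr genes (2.86%) and 12.99% of all genes. The pair holding it was Cpr78Ca and Cpr49Af. Across all protein-coding genes, 8.09% of those with a TATA match had a passing summit, beside 1 of 54 Cpr genes with a match. The median signal of the 47 Cpr genes with a TATA match and a ranked peak was 16.2, against 17.9 for all genes with both.

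**Figure D1:**
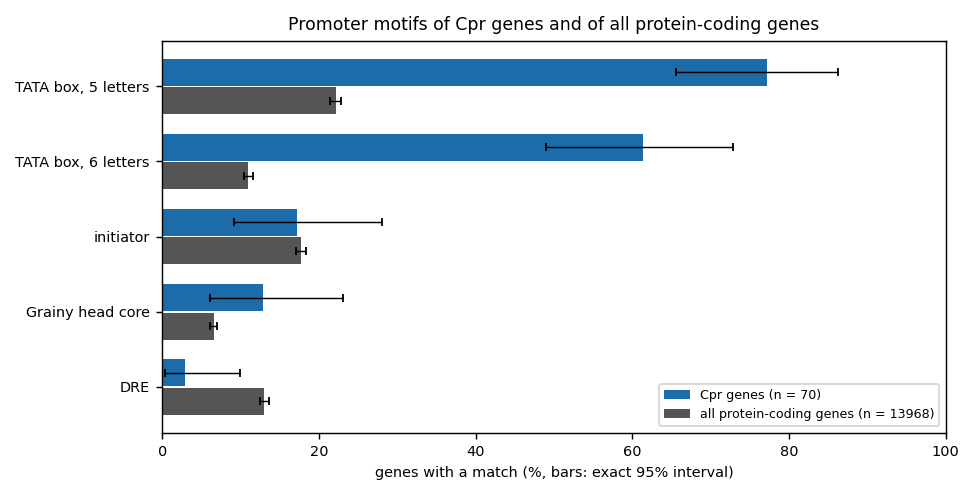
Share of genes with each promoter motif (horizontal axis, %), for the 70 Cpr genes (blue) and all 13968 protein-coding genes (grey), with exact 95% intervals as bars. The TATA forms stand at 77.1% and 61.4% of Cpr genes, and the initiator bars are of like length in both groups.

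Below the threshold, most Cpr genes had a weak peak within 500 bp of a TSS, as did most protein-coding genes. The ranked list made from both replicates, which includes peaks of any IDR, placed a summit near the TSS (within 500 bp) of 61 of 70 Cpr genes (87.1%, exact 95% interval 77.0 to 93.9%). This share was near the 82.9% of all protein-coding genes. For the strongest such peak of each gene, the mean signal of the replicates had a median of 15.9 over the 61 Cpr genes, with quartiles of 12.8 and 21.4 and a range of 5.31 to 33.8. Over all 11575 protein-coding genes with a ranked peak the median was 18.5, with quartiles of 13.3 and 26.0. Of the 61 Cpr genes, 22 lay above that median, 8 above the upper quartile and 0 above the 90th percentile. Restricted to genes with 1 TSS, the medians were 16.04 for Cpr genes and 17.1 for all genes. Genes without a passing summit had a median of 17.1, and Cpr genes without one a median of 15.9. In both restrictions the Cpr median stayed the lower one, and the differences were not tested. The pooled SD between the replicates of a Cpr gene was 6.04. A −log10 IDR of at least 1 was reached by 11 of 61 Cpr genes (18.03%), beside 28.6% of all genes with a ranked peak. Cpr genes with 1 TSS had a mean of 1.37 ranked summits within 500 bp of it, beside 1.23 for all genes with 1 TSS. Across the Cpr clusters described below there were 1.27 per kb, so the windows around the start held about as many summits as the sequence of the clusters.

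**Figure D2:**
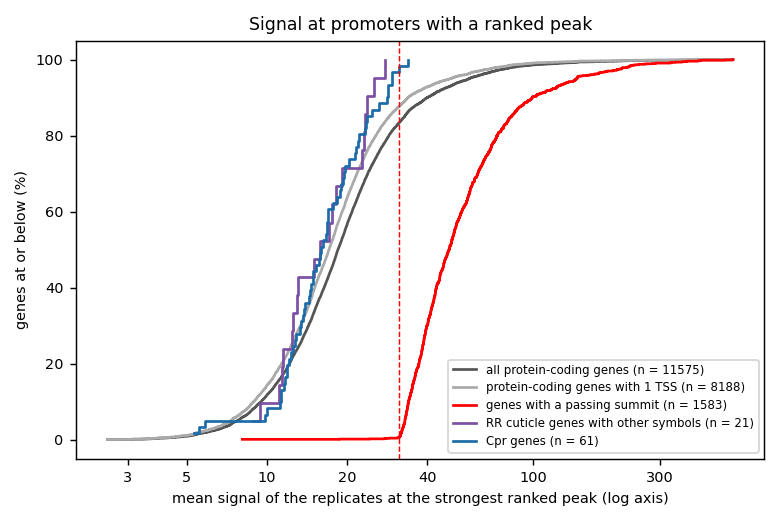
Cumulative share of genes (vertical axis, %) by the mean signal of the replicates at their strongest ranked peak (horizontal log axis, units of the peak caller), with the lowest mean signal of a conservative peak as a dashed line at 31.4. The Cpr genes (n = 61) follow the genes with 1 TSS at low signal, end at 33.8, and run close to the curve of cuticle genes with the same consensus and other symbols (n = 21).

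After Cpr65Ec and Cpr76Bd, 8 members completed the 10 with the highest signal. Cpr73D, with signals of 32.9 and 26.2 in replicates 1 and 2, had a mean of 29.5 ± 4.74 (SD, n = 2), from a peak 256 bp downstream of the TSS in an untranslated exon. Cpr67Fb had 26.3 and 32.5 (mean 29.4), and Cpr78Ca had 28.4 and 28.7 (mean 28.5), the closest replicates of the 10. These members encode cuticle proteins of their clusters at 67F and 78C, apart from Cpr73D, which lay in no cluster and had no match to the consensus core searched here. Cpr62Bc had 33.7 and 23.1 (mean 28.4), Cpr60D had 26.1 and 30.3 (mean 28.2) and Cpr67B had 27.3 and 25.6 (mean 26.5). Cpr49Af had 25.7 and 24.0 (mean 24.9), and Cpr78Cc had 16.7 and 30.8 (mean 23.8). The −log10 IDR of these 8 genes ranged from 0.738 at Cpr78Cc to 1.71 at Cpr73D and Cpr67Fb, so none reached 2. Within 250 bp of the TSS, the strongest peak of Cpr73D had a mean of 9.59 and that of Cpr67B a mean of 13.5.

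At the other end, Cpr76Bc had signals of 5.45 and 5.16 in replicates 1 and 2, a mean of 5.31 ± 0.203 (SD, n = 2). Cpr11A had 8.94 and 2.12 (mean 5.53), and Cpr47Ec had 7.29 and 4.45 (mean 5.87). Cpr78Cb, with 8.75 and 10.9, and Cpr62Ba, with 10.4 and 9.61, had means of 9.80 and 10.004. All 5 had the same −log10 IDR of 0.132, the lowest value over all genes. Some of these low values depended on how the peak was chosen. In the same list, the highest signal of any peak within 500 bp of Cpr47Ec was 8.63 in replicate 1 and 16.7 in replicate 2, and for Cpr62Ba these values were 11.6 and 16.1. Within 1000 bp, the strongest peak had a mean of 21.9 for Cpr76Bc, 18.3 for Cpr47Ec and 15.45 for Cpr62Ba. The value for Cpr76Bc is that of the peak in a coding exon of its neighbour Cpr76Bb, which is also the strongest peak of that gene at 500 bp. For Cpr76Bc, the wider window thus took in the peak of another member. At 500 bp, Cpr76Bc and its cluster neighbour Cpr76Bd held the lowest and the second highest signal of the family.

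The replicates ranked the Cpr genes alike only in part. Across the 61 genes, Spearman's rho between replicates was 0.34 and Pearson's r was 0.38. These are descriptions across genes, which share the libraries and are not independent. They were 0.53 and 0.89 for all protein-coding genes with a ranked peak, and 0.30 and 0.33 for those without a passing summit. Signals lay within 1.5-fold of each other at 35 of 61 Cpr genes and over 2-fold apart at 8 (13.1%), beside 24.3% of all genes with a ranked peak. Replicate 2 was the higher one at 27 of 61. The largest differences, as log2 of replicate 2 over replicate 1, were −2.56 at Cpr47Eb (19.2 and 3.26), 2.10 at Cpr76Ba (5.49 and 23.6) and −2.07 at Cpr11A. The direction differed between these genes, so neither replicate was high at all of them.

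**Figure D3:**
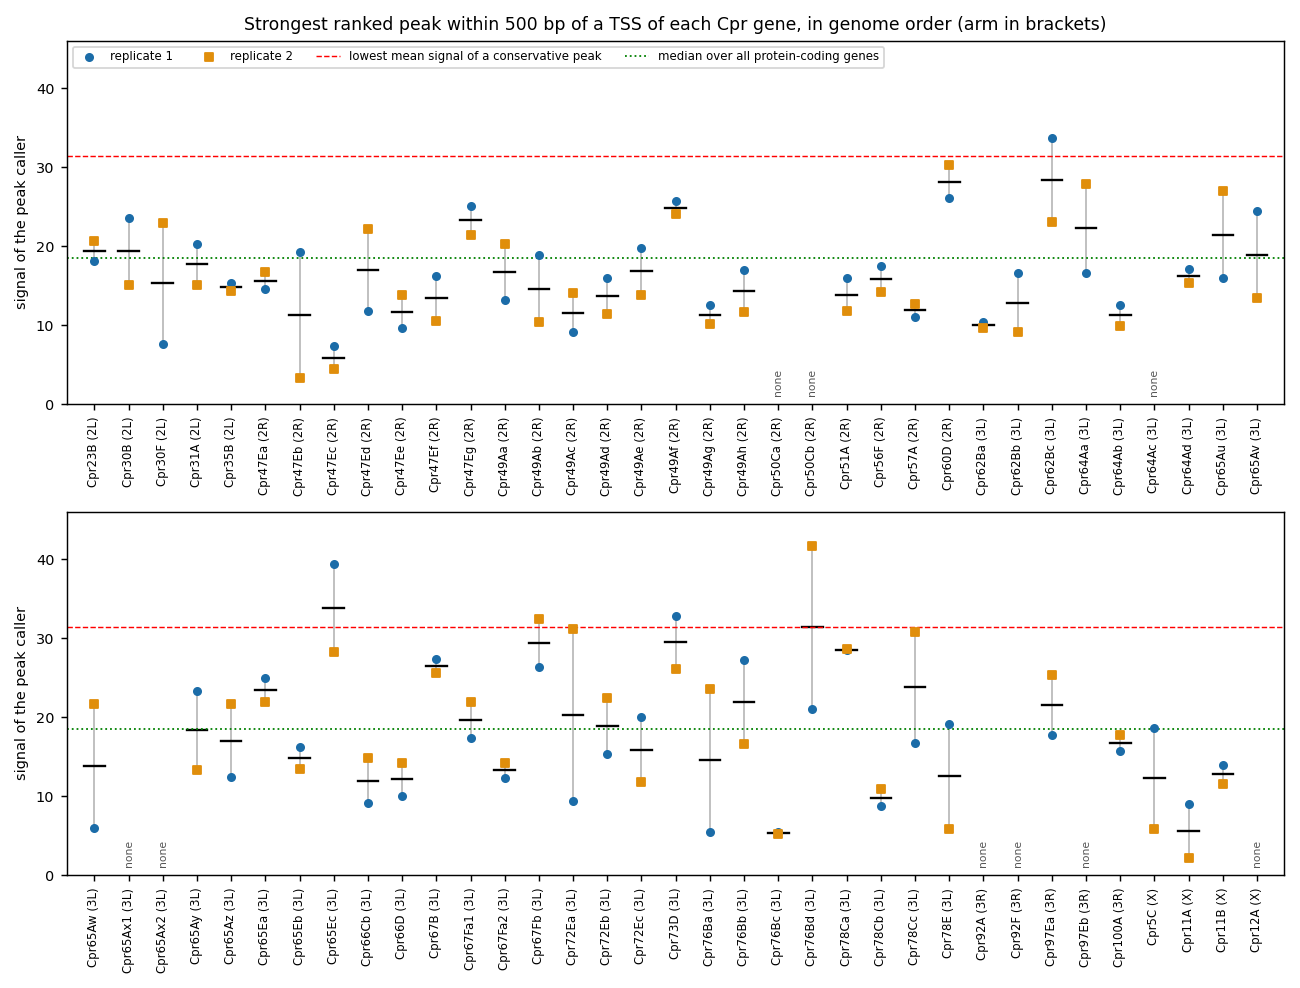
Signal of the strongest ranked peak within 500 bp of a TSS (vertical axis, units of the peak caller) for each of the 70 Cpr genes in genome order, with replicate 1 as circles, replicate 2 as squares and their mean as a bar. The dashed line at 31.4 is the lowest mean of a conservative peak and the dotted line at 18.5 the median of all genes, and 9 members marked "none" had no ranked peak.

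The peaks at Cpr genes lay further into the gene than those of genes with a passing summit. Since 60 of the 61 Cpr genes had no passing summit, genes without one are the closer comparison, and there the gaps were smaller. The strongest ranked summit lay downstream of the TSS at 41 of 61 Cpr genes (67.2%), against 55.5% of all genes with a ranked peak. The share was 29.8% of genes with a passing summit and 59.6% of those without one. Over 250 bp downstream were 25 Cpr genes (41.0%), beside 25.1% of all genes, 5.18% of genes with a passing summit and 28.3% without one. Within 100 bp of the TSS were 10 Cpr genes (16.4%), beside 29.6%, 47.3% and 26.8% in the same order. The median position was 168 bp downstream for Cpr genes, 36 bp for all genes and 72 bp for genes without a passing summit. These differences were not tested. Summits fell in a coding exon of the gene at 33 of 61 Cpr genes (54.1%), upstream of it at 20, in an untranslated exon at 5 and in an intron at 3. Coding exons held the summit at 32.2% of all genes, at 4.23% of those with a passing summit and at 36.7% of those without one. Among genes with 1 TSS, coding exons held 59.3% of Cpr summits and 37.98% of all summits. Coding sequence filled a median of 62.6% of the first 500 bp downstream over all 63 Cpr genes with 1 TSS. Over all 10269 genes with 1 TSS it was 63.0%. Both sets include genes without a ranked peak, whose medians were 9.2% for the 9 Cpr genes and 65.0% for all such genes. The medians of 62.6% and 63.0% therefore do not describe only the genes with a summit. Of the 11 Cpr genes with a −log10 IDR of at least 1, 10 had the summit downstream and 7 in a coding exon. The remaining gene was Cpr60D, with its summit at −215 bp, upstream. Positions were not counted for all genes at this IDR cutoff, so these counts have no background beside them.

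**Figure D4:**
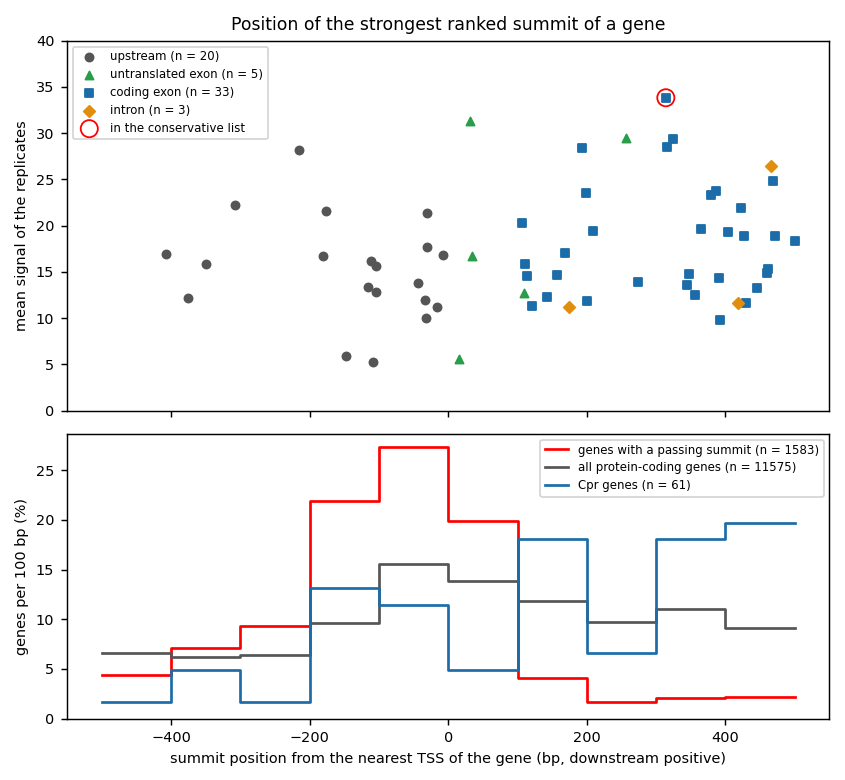
Top: mean signal of the strongest ranked peak of 61 Cpr genes (vertical axis, units of the peak caller) against the position of its summit from the nearest TSS (bp, downstream positive), by feature, with the passing peak of Cpr65Ec circled. Bottom: share of genes per 100 bp of position (%) for Cpr genes, all genes and genes with a passing summit, where Cpr summits gather downstream and passing summits just upstream of the TSS.

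The bases at these coding summits are printed for Cpr65Ec, the passing peak, and for Cpr67Fb and Cpr78Ca, the next members by signal with a coding summit. Each is 101 bases long, 5′ to 3′ on the strand of the gene, with the central 11 bases around the summit in capitals. The windows are 3L:7093468-7093568 (plus), 3L:10894447-10894547 (plus) and 3L:21292434-21292534 (minus) in dm6.
Cpr65Ec summit: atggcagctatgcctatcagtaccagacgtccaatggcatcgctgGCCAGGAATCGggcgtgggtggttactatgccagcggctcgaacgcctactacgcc
Cpr67Fb summit: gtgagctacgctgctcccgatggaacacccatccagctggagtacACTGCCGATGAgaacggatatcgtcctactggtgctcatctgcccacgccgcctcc
Cpr78Ca summit: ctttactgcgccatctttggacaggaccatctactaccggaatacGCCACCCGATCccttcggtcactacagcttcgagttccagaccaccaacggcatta

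These windows had a GC content of 59.4%, 60.4% and 53.5%. Over the 61 Cpr genes, the 101 bases around the strongest summit had a median GC content of 55.4%. The median was 49.5% for all genes, 42.6% for genes with a passing summit and 44.6% for the peaks of the conservative list. The part of GC content in the weak signal was not tested. The summit of Cpr67Fb fell inside the stretch that encodes the consensus core. Of the 54 members with a core match and a ranked peak, 9 had the summit within 50 bp of that stretch. The stretch began within 500 bp of a TSS in 26 members, and 8 of these had the summit within 50 bp of it. No background was counted for summits near such a stretch.

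For 9 Cpr genes no ranked summit lay within 500 bp of a TSS, namely Cpr50Ca, Cpr50Cb, Cpr64Ac, Cpr65Ax1, Cpr65Ax2, Cpr92A, Cpr92F, Cpr97Eb and Cpr12A. The last members inside and outside that limit were Cpr65Ay, with a summit at 500 bp and signals of 23.3 and 13.3, and Cpr92F, with the nearest summit at 534 bp. The nearest summit lay at 576 bp for Cpr65Ax1, 593 bp for Cpr65Ax2, 735 bp for Cpr12A, 791 bp for Cpr97Eb and 1062 bp for Cpr64Ac. It lay at 1891 bp for Cpr50Ca, 5720 bp for Cpr92A and 8975 bp for Cpr50Cb. Missing peaks did not always mean no signal, since Cpr64Ac had one in the own ranked list of both replicates (10.6 and 8.38). Cpr92F, Cpr65Ax1 and Cpr50Ca had one in that of replicate 1 and Cpr92A in that of replicate 2, with signals of 11.9 to 14.7. Within 1000 bp, 66 of the 70 members had a ranked summit.

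Cpr65Ax1 and Cpr65Ax2 are copies that encode the same predicted protein, and their core promoters are printed to show it. They are on the minus strand at 3L:6147972-6148032 and 3L:6150842-6150902 (dm6), from 45 bp upstream to 15 bp downstream of the annotated 5′ end, with the TATA match in capitals.
Cpr65Ax1: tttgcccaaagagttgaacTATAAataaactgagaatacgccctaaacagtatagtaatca
Cpr65Ax2: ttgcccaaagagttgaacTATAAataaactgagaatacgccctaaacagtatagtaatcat
With a shift of 1 base, the central 201 bases around the start were 100% identical, and 80.9% of the bases in the 1001 bp around it. Of the 31-base words in the 1001 bp around the start, 76.4% at Cpr65Ax1 and 72.1% at Cpr65Ax2 occurred elsewhere in the reference. At the other Cpr genes this share was at most 8.03%. Over all protein-coding genes, 335 had at least 50% of such repeated words, and 289 of them lacked a ranked peak. The sources used here do not say how reads that match both copies were treated, so their lack of a ranked peak is uncertain.

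Most Cpr genes lay in tandem clusters, and these held 1 passing peak. With gaps of at most 30 kb between neighbouring members, 45 of the 70 genes fell into 10 clusters of 3 or more members, which covered 169 kb. They contained 1 passing summit, that of Cpr65Ec already counted above, or 5.90 per Mb, beside 18.3 per Mb over the arms. With 1 summit in so short a length, counting error is large, and the difference in density was not tested. Ranked summits were not sparse in the clusters, with 216 or 1.27 per kb, beside 0.985 per kb over the arms. Both figures for the arms include chromosomes 4 and Y, which held 4.45 and 0.273 passing summits per Mb. All clusters lay on 2R and 3L, with 20.7 and 19.6 passing summits per Mb. The arms were not limited to gene-rich sequence, so they are not a matched background. The clusters also held 22 protein-coding genes that are no members. Of these, 0 had a passing summit and 18 had a ranked peak, with a median signal of 17.4. For all protein-coding genes, the shares were 11.3% and 82.9% and the median was 18.5. The 22 include Lcp65A genes, Acp65Aa and Edg78E, which are counted again below among cuticle genes with other symbols. The median signal was 16.5 for clustered members and 15.3 for members outside clusters, a difference that was not tested.

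The largest cluster by members was at 49A on 2R, with 8 genes over 38.5 kb and signals of 11.3 to 24.9, led by Cpr49Af. The cluster at 47E on 2R held 7 genes over 26.7 kb with signals of 5.87 to 23.3, led by Cpr47Eg (25.1 and 21.5 in replicates 1 and 2). The cluster at 65A on 3L held 7 Cpr genes among 11 others over 30.3 kb, and Cpr65Au led it with 15.9 and 26.9. At 64A, 4 genes spanned 8.58 kb, led by Cpr64Aa with 16.6 and 27.8. At 72E, 3 genes spanned 4.74 kb with means of 15.9 to 20.3, and Cpr72Ea led with replicates at 9.44 and 31.2. The clusters at 65E and 78C had the highest median signals, 23.5 and 23.8, each over 3 genes. The cluster at 62B had the lowest, 12.9, although its member Cpr62Bc reached 28.4. At 78C, means ran from 9.80 at Cpr78Cb to 28.5 at Cpr78Ca, the extremes of that cluster, and the difference was not tested.

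**Figure D5:**
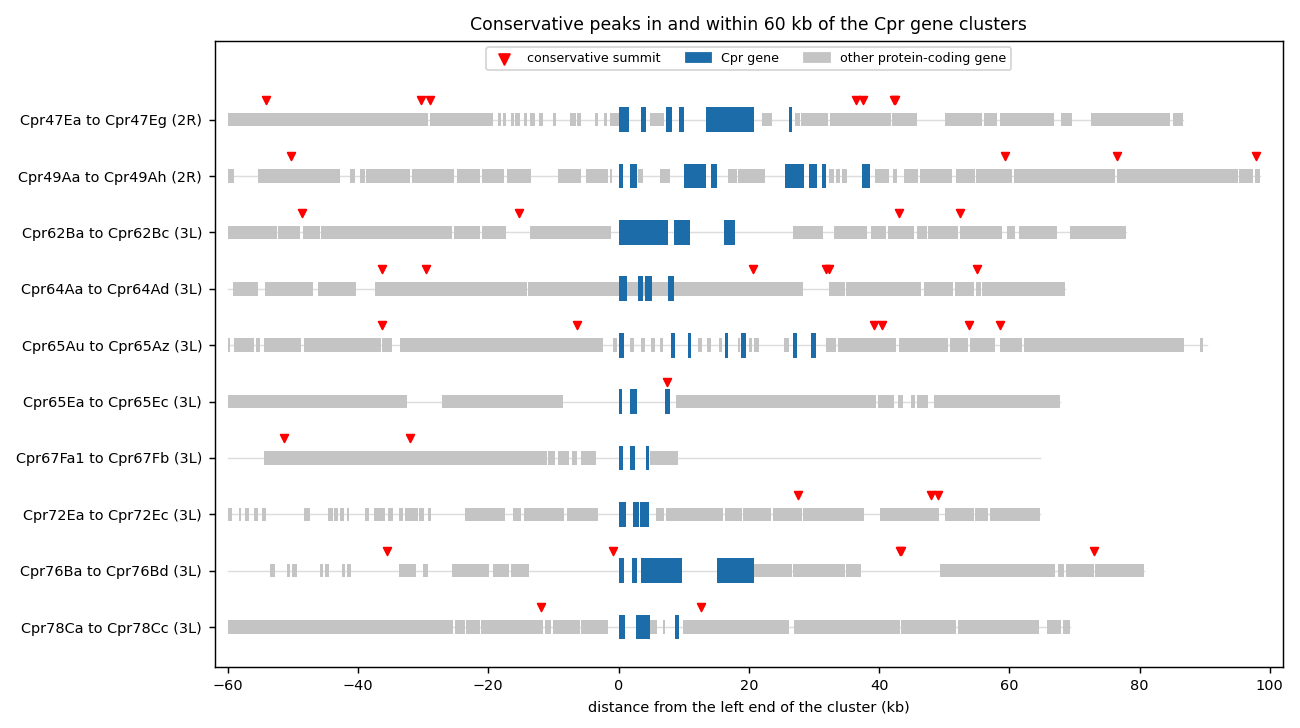
Passing summits (triangles) in and within 60 kb of the 10 Cpr clusters, with Cpr genes in blue and other protein-coding genes in grey, against the distance from the left end of each cluster (kb). A triangle stands inside the 65E cluster, at Cpr65Ec, and another just left of the 76B cluster.

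Among TSSs of protein-coding genes, the only ones searched, the one closest to the nearest passing summit was for most members that of another gene, no member. That TSS could be far from the summit, at 9960 bp for the summit nearest to Cpr35B. The median distance from a Cpr TSS to the nearest passing summit was 21621 bp, with a range of 314 to 83109 bp. For all protein-coding genes it was 13564 bp, and for those with 1 TSS 15494 bp. After Cpr65Ec, the nearest members were Cpr76Ba at 1610 bp, Cpr76Bb at 2927 bp, Cpr78Cc at 4018 bp and Cpr76Bc at 4223 bp. The summit near the 76B cluster, in a peak at 3L:19516694-19516783, lay 830 bp beyond the 3′ end of Cpr76Ba. Its signal was 101.6 in replicate 1 and 88.8 in replicate 2, a mean of 95.2 ± 9.09 (SD, n = 2). The nearest TSS of a protein-coding gene was that of Cpr76Ba, and TSSs of other genes were not searched. The strongest ranked peak at the Cpr76Ba promoter had a mean of 14.5, so the high signal lay behind the gene and not at its start. The summit nearest to Cpr78Cc, with signals of 172 and 118 (mean 145), lay 60 bp from a TSS of CG11309. The farthest members were Cpr12A at 83109 bp, Cpr92F at 70621 bp and Cpr78E at 61853 bp, and the first 2 of these also lacked a ranked peak.

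Weak peaks occurred in every sequence class of the family. A consensus core was searched in proteins translated from the reference. By that rule 19 genes were RR-1-like, 14 RR-2-like, 29 had a core of no assigned class and 8 had no core. The median signals were 16.7 over 17 RR-1-like genes with a ranked peak, 16.2 over 11 RR-2-like genes, 16.4 over 26 unassigned genes and 11.6 over 7 genes without a core. Cpr65Ec was RR-1-like, as were Cpr67Fb, Cpr78Ca, Cpr49Af and Cpr78Cc among the 10 members with the highest signal. Differences between the classes were not tested.

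Other lists of cuticle genes were counted the same way. Among 28 genes for cuticle proteins with the same consensus and other symbols, such as the Lcp and Ccp84 genes, 0 had a passing summit, and 21 had a ranked peak with a median signal of 15.8. Some of these genes lie inside the Cpr clusters and were also counted there. Among 25 Tweedle genes, for another family of cuticle proteins, 0 had a passing summit and the median over 21 was 16.7. Of the chitin-binding Cpap genes, which include obst-A and Gasp, 9 of 11 symbols matched, with 0 passing and a median of 15.4 over 7. Among 14 genes of chitin synthesis and assembly 0 passed, with a median of 23.5 over 13. Of 8 tanning genes 1 (12.5%) passed, Ddc, which encodes dopa decarboxylase, with signals of 28.2 and 41.6 and a summit 33 bp upstream of its TSS. Among 11 regulators of cuticle genes and molting 2 (18.2%) passed, namely Eip75B (59.8 and 39.7) and ftz-f1 (58.3 and 48.6), nuclear receptors of the ecdysone cascade. The median signal of the 11 regulators was 26.4. Regulators differ in their number of TSSs, from 1 at vvl to 7 at Eip75B, with 3 at ftz-f1. A gene with more TSSs has more sequence searched, and these counts and medians were not restricted to genes with 1 TSS. Over all protein-coding genes, 11.3% had a passing summit and 82.9% had a ranked peak, with a median signal of 18.5. Differences between the lists were not tested.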

How the data were processed

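Peak lists from the 2 replicates were used as deposited. Per the labels, the assembly is dm6. The signal value of each peak was made by the authors' peak caller on a scale not given in the sources used here, and values were compared within a list. The deposited −log10 of the IDR gave the threshold of 2 that every peak of the conservative list passed. The aligner, the peak caller and versions are likewise not given. Read depth is unknown, so intervals cover counting error only. In the ranked list from both replicates, the columns of replicates 1 and 2 were identified by exact matches to the own list of each replicate.

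TSSs came from Ensembl 115 gene models and bases from the release 6 reference. Analysis used Python 3.11.15 with pandas 2.3.3 and SciPy 1.17.1. The strongest peak of a gene was the one with the highest list signal. Window and distance steps were tested on simulated data. No table of proteins was used, so proteins were translated from the reference. Symbols without a match (obst-C, obst-D and svb) were not analysed here.

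The members and lists were chosen with earlier results of these data known. Members named are those with a thresholded summit within 1000 bp, the 10 highest and 5 lowest by mean signal, the strongest of each cluster, those beside the 500 bp limit, the 3 with the largest replicate difference on the log2 scale, and the 5 nearest to and 3 farthest from a passing summit. Genes of other lists are named where they had a passing summit.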

Additional observations from a re-analysis of the deposited data

How the results depend on the processing

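The number of Cpr genes with a passing summit was 2 in the pooled-read list, 0 in the strongest 1258 peaks of the conservative list, 0 at 250 bp and 0 with either replicate left out. It stayed at 1 at 1000 bp, with any overlap of the peak and with the gene's 5′ end alone. Shares of all protein-coding genes were not set beside the counts for the strongest 1258 peaks, other distances, peak overlap or 5′ ends. The median signal moved from 15.9 to 13.1 at 250 bp and 17.4 at 1000 bp, and was 29.9 on the scale of the pooled-read list. The members' median stayed below that of all genes at 0.739 to 0.896 times across these settings and the other alternatives for it. The median distance to a passing summit was 32830 bp for those strongest peaks and 32830 to 35690 bp with a replicate left out, lists with fewer peaks. Passing summits inside clusters numbered 2 in the pooled-read list and 0 with either replicate left out. The number with a ranked peak, clustered members and TATA matches each stayed within 1.5 times. Choosing the strongest peak by the replicate mean, added after seeing the data, left the median at 15.9. No paired analysis was possible because there was only 1 group. With 2 replicates, no control library and unknown depth, weak peaks cannot be told apart from background.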
